A study of Mus musculus with 18 samples.

Results

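The endoplasmic reticulum (ER) stress response was followed in 10 genes, Xbp1, Atf4, Atf6, Ddit3, Calr, Canx, Pdia4, Pdia6, Herpud1 and Sdf2l1, in astrocytes of the primary motor cortex (M1). They were chosen by name as factors of the unfolded protein response and their folding targets, and all 10 were found among the 23924 genes read. All mice were wild-type C57BL/6, and the series asks what learning a cued lever push for water does to their astrocytes. Naive mice were untrained (12 to 21 weeks old), novice mice had 3 days of training (11 to 13 weeks) and expert mice were fully trained (13 to 15 weeks). Each group had 6 libraries, 2 labelled female and 4 labelled male. The sources used here do not say how astrocytes were isolated, whether naive mice were water restricted or whether each library is 1 animal, so p-values measure the spread between libraries.

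The ER folds and glycosylates proteins that are secreted or placed in membranes. When unfolded proteins build up, the sensors IRE1 (gene Ern1), PERK (Eif2ak3) and ATF6 start the unfolded protein response. IRE1 splices Xbp1 RNA, PERK slows translation and lets the Atf4 message be translated, and ATF6 is cut to release a transcription factor. These factors switch on chaperones, disulfide isomerases and degradation genes, and, under lasting stress, the death-linked factor CHOP (Ddit3). In astrocytes this machinery serves the making of transporters, channels and secreted matrix proteins. The deposited gene-level values do not show Xbp1 splicing, Atf4 translation or ATF6 cleavage. They show RNA levels in FPKM, which divides the fragments of a gene by its length and by the library's size, so genes can be compared with each other.

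Promoter sequences of the folding genes are shown because the factors are known to act through short elements in them. The ER stress response element (ERSE) is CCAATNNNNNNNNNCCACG, a CCAAT box and the CCACG that ATF6 and XBP1 bind, at fixed spacing, and ERSE-II is ATTGG, any 1 base and CCACG. Both strands were searched over 300 bases, from 250 before to 50 after each start, in RefSeq sequences of build GRCm38.p6. Of the 10 genes, 9 matched a window there by symbol and Atf6 did not. The end of the Pdia4 window was not found in a GENCODE transcript of that gene, so its lack of a motif is less sure. ERSE was found in 0.119% of the 32851 promoters and in 3 of the 9 members, and ERSE-II in 0.0365% and in 1 member. The matched stretches are printed 5′ to 3′ on the gene's strand, with the motif in capitals, beside that of Hspa5, which encodes the ER chaperone BiP, the best known target.
Hspa5, ERSE, chr2:34772010-34772058, plus strand: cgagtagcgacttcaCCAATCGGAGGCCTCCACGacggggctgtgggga
Calr, ERSE on the opposite strand, chr8:84847060-84847108, minus strand: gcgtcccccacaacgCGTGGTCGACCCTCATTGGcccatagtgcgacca
Canx, ERSE, chr11:50325785-50325833, minus strand: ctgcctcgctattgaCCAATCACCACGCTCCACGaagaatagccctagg
Pdia6, ERSE, chr12:17266476-17266524, plus strand: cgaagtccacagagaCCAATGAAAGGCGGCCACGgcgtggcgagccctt
Herpud1, ERSE-II, chr8:94386362-94386402, plus strand: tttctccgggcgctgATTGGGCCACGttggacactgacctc
The motifs began 65 (Hspa5), 162 (Calr), 145 (Canx), 98 (Pdia6) and 52 (Herpud1) bases before the start site. Herpud1 also held the core of the ATF4 element, TTGCATCA, in capitals here, which 0.895% of promoters hold.
Herpud1, ATF4 element core, chr8:94386302-94386339, plus strand: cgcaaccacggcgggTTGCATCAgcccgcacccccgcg
The core of the XBP1 element, TGACGTGG, is in 0.676% of promoters and in 0 of the 9. A match is a description of letters, not of binding, and the deposited values hold no binding data.

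The libraries differed in ways that touch these genes. Olfactory receptors and other gene families that brain cells hardly use, 1562 genes on autosomes, were averaged in each library to give its background, and are called silent genes here. It ran from 0.303 to 3.34 FPKM in 10 libraries (4 naive, 2 novice, 4 expert) and from 4.70 to 6.76 FPKM in the other 8 (2 naive, 4 novice, 2 expert). The naive mean was 3.71 ± 2.38 (SD, n = 6), the novice mean 4.69 ± 1.65 and the expert mean 2.97 ± 2.12, and every group held libraries of both kinds, so the group ranges overlapped. Exact permutation tests over 924 splits on the log2 scale, two-sided, gave p = 0.29 for novice against naive (adjusted 0.56). The p was 0.48 between expert and naive (adjusted 0.73) and 0.14 between expert and novice (adjusted 0.33) by the same exact test. Of 7 lists of cell type markers the astrocyte list was highest in every group. Its medians were 6.91, 6.07 and 6.96 for the mean log2(FPKM + 1) of 12 markers. Slc1a2, the glutamate transporter, stood at 548 FPKM or more in naive, 518 in novice and 759 in expert. Aqp4, another astrocyte marker, had lower means of 61.0, 39.8 and 70.6 FPKM in naive, novice and expert. The neuronal marker Snap25 had means of 129, 110 and 102 FPKM, above Aqp4 in each group. Mbp, of the oligodendrocyte list, had means of 84.9, 35.4 and 42.5 FPKM. Neuronal markers (medians 5.07, 4.13 and 4.48) and endothelial markers (4.83, 4.89 and 5.31) were present too, and no marker of any list was at 0 in all libraries of a group. Novice 1 and novice 3 had Xist and Ddx3y levels opposite to their labelled sex, and results without both are given where a direction turned. Bc1, the brain cytoplasmic RNA, made up between 6.01% and 59.6% of a library's summed FPKM. Its share was 56.0% in novice 1 and 59.6% in novice 2, against 14.0% to 19.2% in the remaining novice libraries. The part of this in the members' values was not tested. The number of fragments per library is unknown, and between 2257 and 5430 genes were at exactly 0.

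Calr, the ER lectin that holds calcium and folds glycoproteins, was the most abundant member in 18 of 18 libraries. In naive libraries the order by median FPKM was Calr, Canx, Atf4, Ddit3, Pdia4, Pdia6, Herpud1, Xbp1, Sdf2l1 and Atf6, from 102 down to 5.44. The ranges of neighbours in this order overlapped. Calr and Canx lay above at least 95.5% of the 21745 genes tested in every library, Atf4 above at least 88.4%, and Atf6 between 44.9% and 69.7%.

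**Figure D1:**
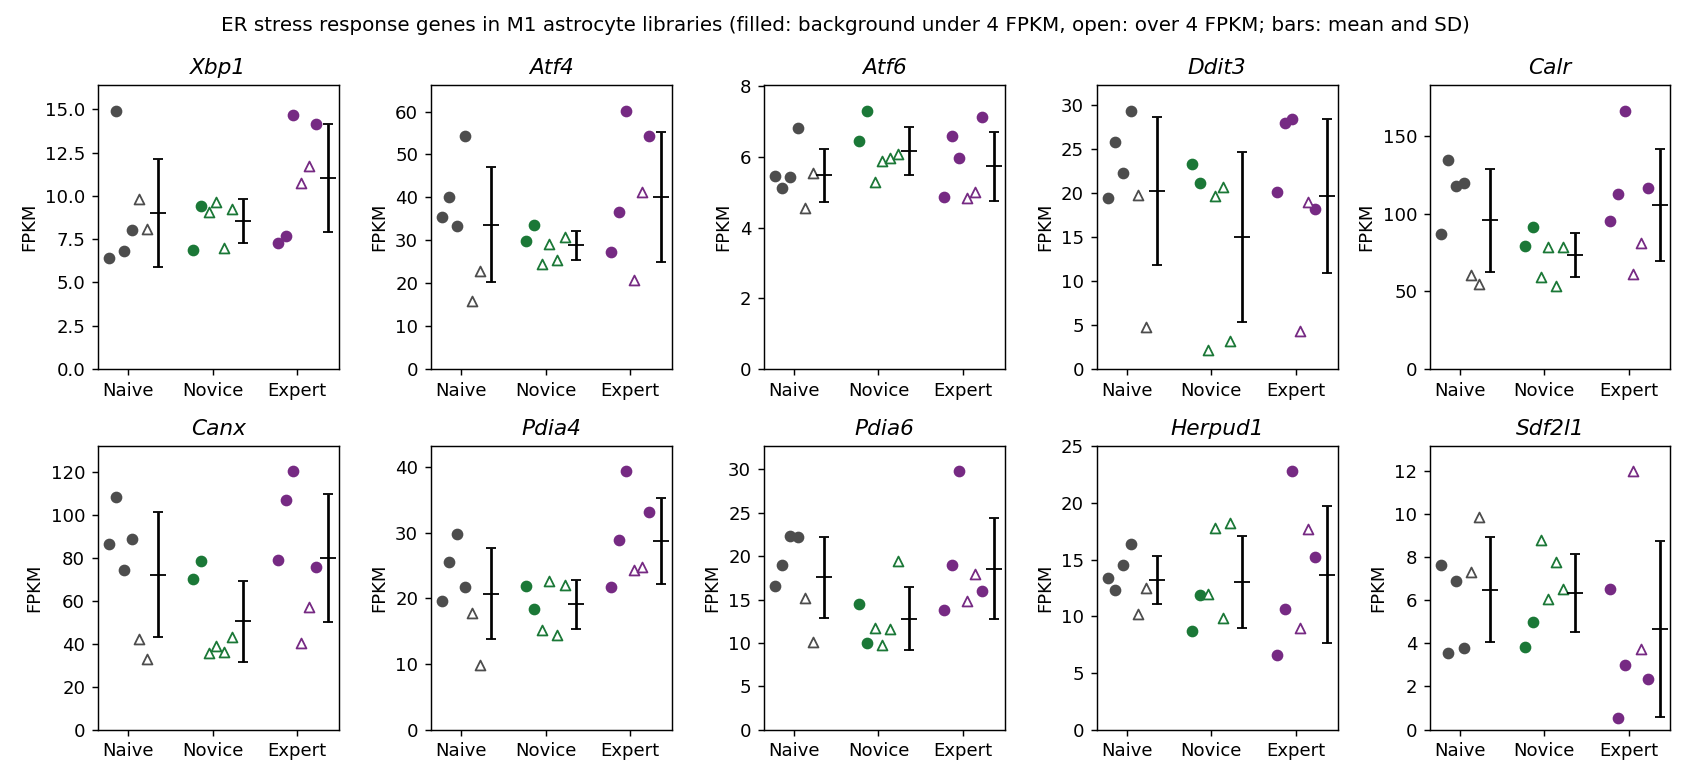
FPKM of the 10 genes in each library by group, with the group mean and SD (n = 6) as bars. Filled circles are the 10 libraries with a silent-gene background under 4 FPKM and open triangles the 8 over it; the groups overlap for every gene.

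The factors come first. Xbp1, whose spliced form switches on secretory genes, had a low, median and high of 6.40, 8.07 and 14.9 FPKM in naive libraries, 6.88, 9.17 and 9.67 in novice and 7.30, 11.2 and 14.7 in expert. Naive 2, expert 3 and expert 6 were the high ones, and the groups overlapped. Expert against naive stood at 0.27 (SE 0.22) and expert against novice at 0.30 (SE 0.22) on the log2(FPKM + 1) scale, and novice against naive at -0.03 (SE 0.22), so no difference passed.

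Atf4, the factor that is translated when PERK or its sister kinases are active, had 15.9, 34.3 and 54.2 FPKM (low, median, high) in naive, 24.5, 29.4 and 33.6 in novice and 20.7, 39.0 and 60.2 in expert. The novice libraries lay within the range of the naive ones. Its log2 differences were -0.12 (SE 0.28) for novice against naive, 0.26 between expert and naive and 0.38 between expert and novice, the last 0.25 without expert 3.

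Atf6, the membrane-bound sensor and factor, varied least. Its naive libraries ran from 4.55 to 6.82 FPKM, its novice ones from 5.30 to 7.31 and its expert ones from 4.85 to 7.13, and its highest library was 1.61 times its lowest. Its 95% intervals were the narrowest of the 10, at -0.18 to 0.47 for novice against naive, -0.28 to 0.37 between expert and naive and -0.42 to 0.23 between expert and novice. A difference of 0.5 on the log2(FPKM + 1) scale lies outside each of them. At levels this low the added 1 shrinks differences, so a log2 difference of 0.5 in FPKM itself is not excluded. In 10 of 18 libraries more than 5% of the silent genes were at or above Atf6, so its level there was not far from the background.

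The other sensors were as low. Ern1 had naive, novice and expert means of 4.22 ± 1.65, 4.08 ± 1.78 and 4.20 ± 1.84 FPKM (SD, n = 6), and Eif2ak3 means of 4.85 ± 0.804, 4.39 ± 0.948 and 5.20 ± 0.925 FPKM. Their log2 differences in the 3 comparisons stood at -0.07, -0.05 and 0.02 for Ern1 and at -0.12, 0.08 and 0.21 for Eif2ak3.

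Ddit3, which encodes CHOP, stood at separate levels within each group. It stood at 18.2 to 29.4 FPKM in 14 libraries. In the others it was 4.80 FPKM (naive 6), 2.14 (novice 3), 3.17 (novice 6) and 4.36 (expert 4), and no value lay between. These 4 libraries belong to all 3 groups, and each is among the 8 of higher background, which also hold naive 5, novice 4, novice 5 and expert 5 at 19.8, 19.7, 20.8 and 19.0 FPKM. In the 4 low libraries 27.8% to 51.9% of the silent genes were at or above Ddit3, so its level there cannot be told apart from the background.

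The gene most like Ddit3 across the 18 libraries, looked for after its values were seen and with predicted loci left out, was Coa6, an assembly factor of mitochondrial complex IV. Pearson's r between their log2(FPKM + 1) values was 0.96, a description over libraries that share depth and background. Coa6 was listed at 0 in the same 4 libraries and stood at 4.71 to 15.2 FPKM in the other 14. Mbd6 and Mars, the neighbours that overlap the ends of Ddit3 in RefSeq's GRCm38.p6 annotation, showed no such step. Mars was 7.07, 6.79, 7.19 and 6.93 FPKM in naive 6, novice 3, novice 6 and expert 4, and Mbd6 was 5.81, 4.49, 4.09 and 4.58 FPKM. No source used here says whether fragments were counted by strand, so fragments of overlapping ends may be shared between these genes.

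**Figure D2:**
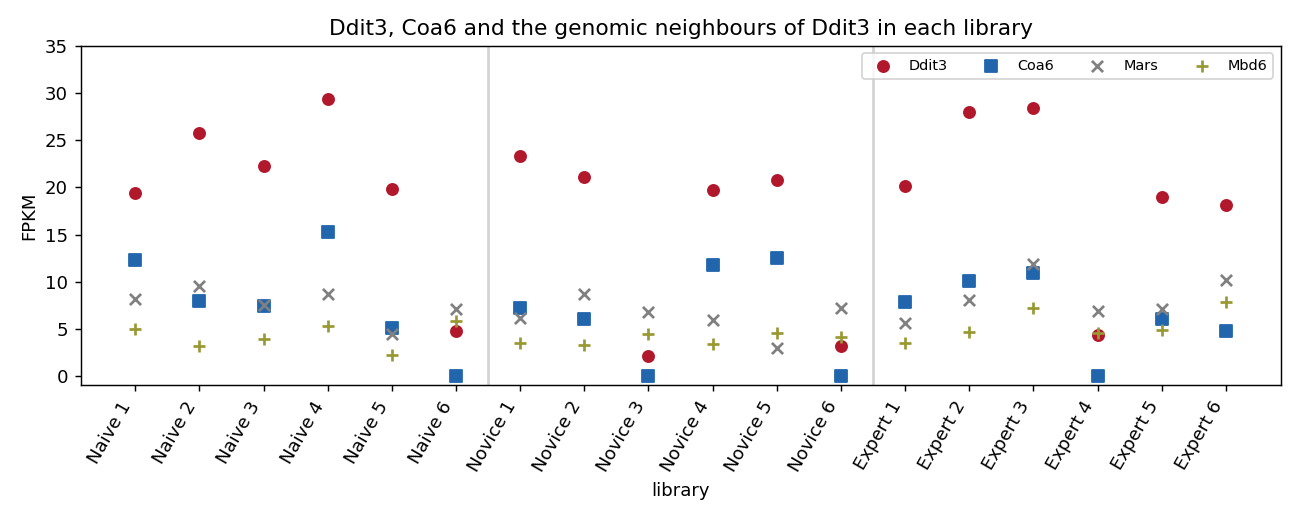
FPKM of Ddit3, Coa6 and the neighbours of Ddit3, Mars and Mbd6, in each of the 18 libraries, with grey lines between the groups. Ddit3 is under 5 FPKM and Coa6 at 0 in naive 6, novice 3, novice 6 and expert 4 alone.

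Ddit3 had the widest intervals of the 10. Novice against naive stood at -0.65 (SE 0.56, 95% interval -1.81 to 0.52), expert against naive at -0.05 (-1.22 to 1.11) and expert against novice at 0.59 (-0.58 to 1.76). The low libraries decided these values. Without novice 3, novice 6 or naive 6 the novice against naive value was -0.26, -0.34 or -0.99. Without novice 3, novice 6 or expert 4 the expert against novice value was 0.20, 0.28 or 0.95. Without expert 4 the expert against naive value was 0.30, and without naive 6 it was -0.40.

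CHOP targets of the lists ranged widely in level. Tnfrsf10b, the death receptor DR5, had means of 108 ± 66.4, 133 ± 42.3 and 90.8 ± 65.2 FPKM (SD, n = 6) in naive, novice and expert. Ppp1r15a, which restores translation after PERK has slowed it, had means of 8.99, 7.83 and 11.6 FPKM. Trib3, a pseudokinase, had means of 1.40, 2.35 and 1.66 FPKM in naive, novice and expert, and Chac1, which breaks down glutathione, was listed at 0 in 2 naive and 1 expert library.

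The lectin chaperones Calr and Canx carry newly made glycoproteins through folding. Calr had 54.7, 102 and 134 FPKM (low, median, high) in naive, 53.2, 78.7 and 91.2 in novice and 61.5, 104 and 166 in expert. Canx, its membrane-bound relative, had 32.8, 80.5 and 108 FPKM in naive, 35.7, 41.2 and 78.8 in novice and 40.4, 77.3 and 120 in expert. The novice medians were the lowest of both genes. The groups overlapped, and the highest novice library lay below the naive and expert medians of Calr and below the naive median of Canx.

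Canx separated the libraries by background class, while its groups overlapped. The 10 libraries of lower background had 70.5 to 120 FPKM of Canx and the 8 of higher background 32.8 to 57.4, without overlap. This is not particular to Canx. The mean log2(FPKM + 1) of the astrocyte markers also separated the classes, at 6.59 to 8.04 in the lower and 5.89 to 6.33 in the higher. The share of all genes that do so was not counted, and the limit between the classes was chosen after seeing the data. Calr ran from 79.4 to 166 FPKM in the lower class and from 53.2 to 80.9 in the higher. Only 2 of the 6 novice libraries, novice 1 and novice 2, were in the lower class, and they had the highest novice values of Canx, at 70.5 and 78.8 FPKM. The part of the background in the novice values was not tested apart from the values that follow.

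**Figure D3:**
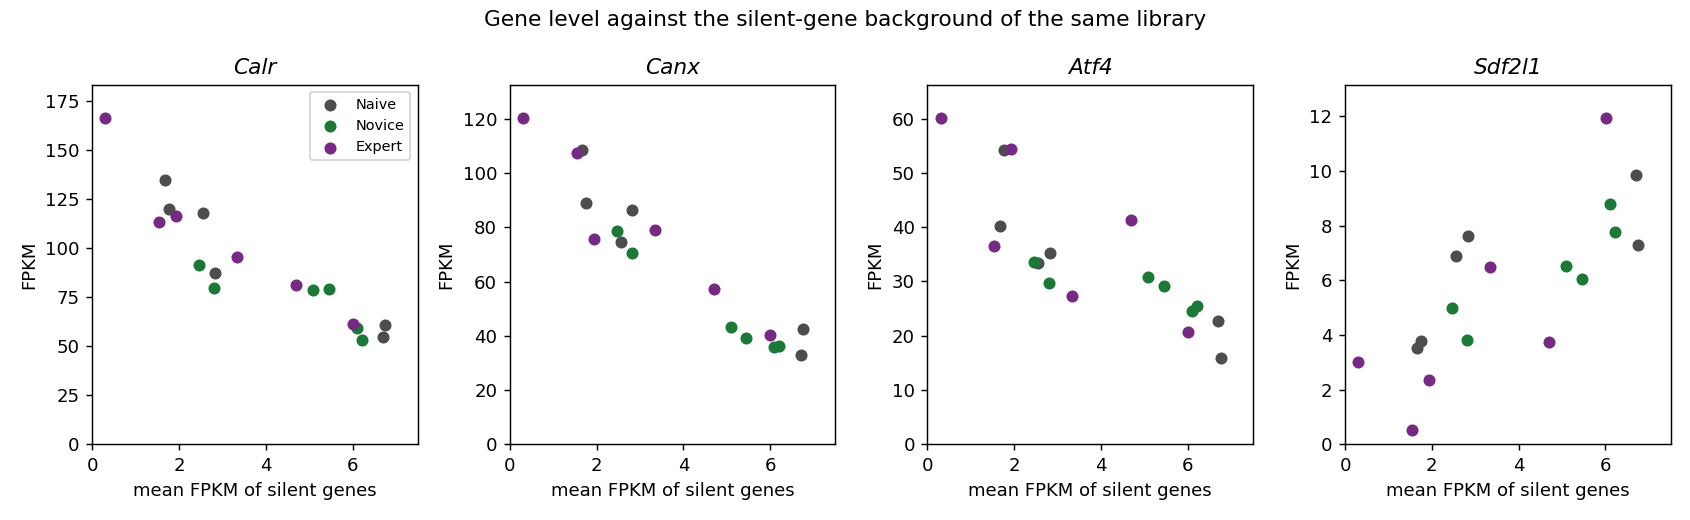
FPKM of Calr, Canx, Atf4 and Sdf2l1 in each library (vertical) against the mean FPKM of silent genes in the same library (horizontal), coloured by group. Calr and Canx are high where the background is low, the Atf4 ranges of the background classes overlap (27.2 to 60.2 and 15.9 to 41.4 FPKM), and Sdf2l1 is highest, at 12.0 FPKM, in a library of higher background.

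Expert against novice stood at 0.64 (SE 0.33) for Canx and 0.47 (SE 0.28) for Calr, and novice against naive at -0.47 (SE 0.33) and -0.32 (SE 0.28). With the background as a covariate the expert against novice values were 0.15 (SE 0.20) for Canx and 0.08 (SE 0.15) for Calr. Without naive 2 the novice against naive value of Calr was -0.21. Within the lower class the expert against novice values were 0.33 and 0.49, and within the higher class 0.32 and 0.08. Novice against naive was -0.25 for Canx and -0.41 for Calr within the lower class, and 0.04 and 0.20 within the higher class, which holds 2 naive and 4 novice libraries.

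The disulfide isomerases Pdia4 and Pdia6 make and rearrange disulfide bonds in new proteins, and Pdia6 also damps IRE1 and PERK signalling. Pdia4 had 9.80, 20.7 and 29.8 FPKM (low, median, high) in naive, 14.4, 20.1 and 22.6 in novice and 21.7, 26.8 and 39.3 in expert. No expert library lay below 21.7 FPKM, and 3 of the 6 novice libraries were above that level. Expert 3 and expert 6, at 39.3 and 33.2 FPKM, were the highest of all. The same libraries were the highest in endothelial markers, with a mean log2(FPKM + 1) of 5.99 and 6.19 against 4.21 to 5.41 in the other 16. The part of endothelial RNA in the Pdia4 values was not tested, and in bulk RNA a different share of cells and a different level per cell cannot be told apart.

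Pdia4 stood closest to the threshold among the 10. Expert against novice was 0.56 (SE 0.24, 95% interval 0.06 to 1.05, unadjusted p = 0.029 and adjusted p = 0.45 by limma) and expert against naive 0.49 (SE 0.24, 0.00 to 0.99, unadjusted p = 0.0498 and adjusted p = 1.0). Both kept their sign under each of the 31 and 32 alternatives run. Some of these, such as other filters, the replicate block or leaving out a library of the group not compared, cannot move the difference. Without naive 6, the lowest library at 9.80 FPKM, the expert against naive value was 0.31, and without expert 3 it was 0.40. With the background covariate the values were 0.31 and 0.36.

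Pdia6 was lowest in novice. It had 10.1, 17.8 and 22.3 FPKM (low, median, high) in naive, 9.71, 11.7 and 19.4 in novice and 13.8, 17.0 and 29.8 in expert. Of the novice libraries, 4 were below 12 FPKM, as was naive 6 at 10.1, and the expert group had none there. Expert against novice stood at 0.49 (SE 0.23, unadjusted p = 0.046 and adjusted p = 0.45 by limma), novice against naive at -0.42 (SE 0.23, adjusted p = 0.89) and expert against naive at 0.07. With the background covariate these were 0.25, -0.31 and -0.06.

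Herpud1, a membrane protein of ER-associated degradation, carried both an ERSE-II and an ATF4 core in its promoter window. Its naive mean was 13.2 ± 2.11 FPKM (SD, n = 6), its novice mean 13.1 ± 4.04 and its expert mean 13.7 ± 6.04. It was highest in expert 3, at 22.8 FPKM, and lowest in expert 1, at 6.62 FPKM. The log2 differences were -0.05, -0.05 and 0.00, with 95% intervals within -0.59 and 0.55.

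Sdf2l1, a partner of BiP's J-domain cochaperones, had its lowest median in expert. It had 3.54, 7.09 and 9.86 FPKM (low, median, high) in naive, 3.83, 6.29 and 8.79 in novice and 0.518, 3.36 and 12.0 in expert, so the expert group held both its lowest and its highest library. Its median was 3.80 FPKM in the 10 libraries of lower background and 7.53 in the 8 of higher background, whereas those of Atf4 were 36.0 and 24.9. In 11 libraries more than 5% of silent genes were at or above Sdf2l1, and in expert 2 the share was 58.6%. Expert stood below naive by -0.64 (SE 0.38) and below novice by -0.64 (SE 0.38), with adjusted p = 1.0 and 0.45 by limma. Without expert 2 both values were -0.32, and without expert 4 both were -0.94. Within the libraries of background over 2 FPKM, expert against novice was 0.11.

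**Figure D4:**
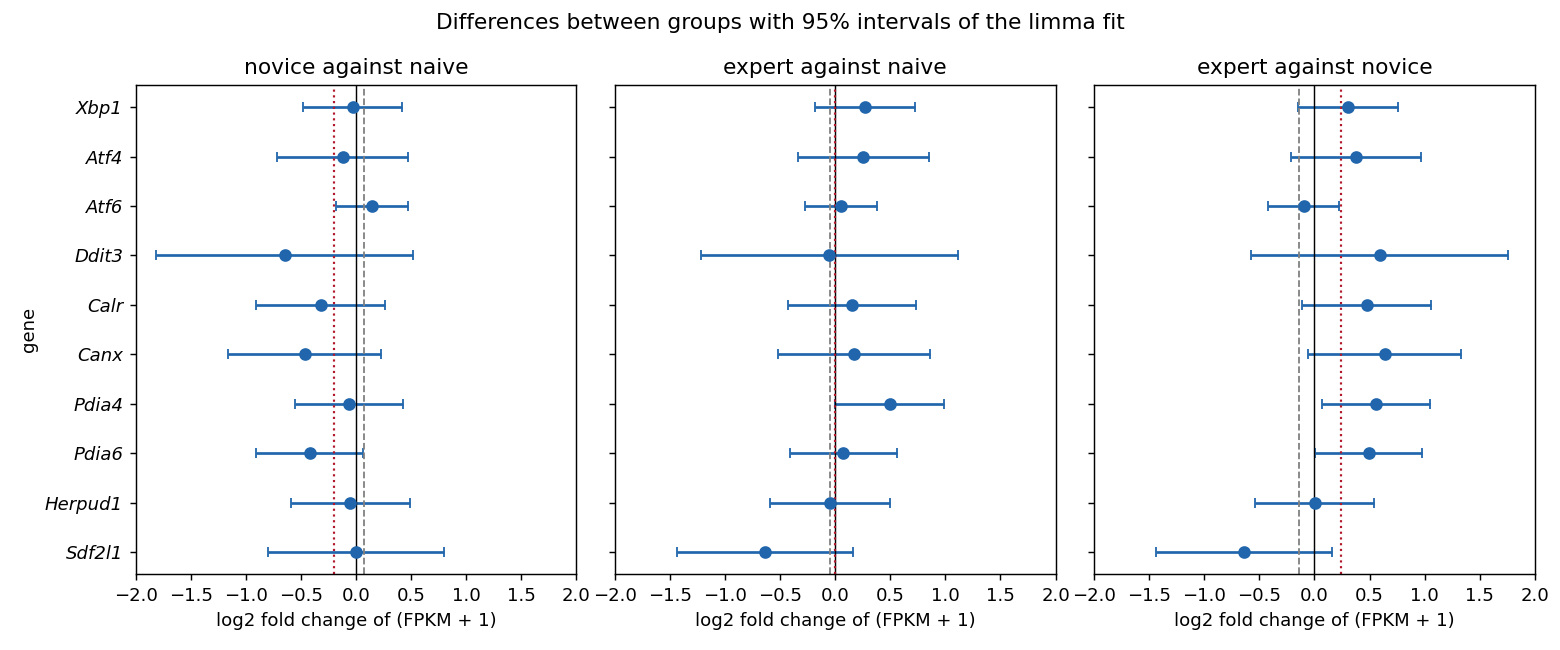
Log2 fold change of FPKM + 1 for each gene (points) with its 95% interval (bars) from limma over 18 libraries, in the 3 comparisons. The dashed grey line is the median of all 21745 genes and the dotted red line that of the 2183 genes with a mean of 20 FPKM or more; the intervals of 10 genes in novice against naive, 9 in expert against naive and 8 in expert against novice span 0.

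Across the 3 comparisons, 0 of the 10 genes passed limma's test at an adjusted p of 0.05, as did 0% of the 21745 genes, and 0 passed the F test over the 3 groups. At an unadjusted p under 0.05 the F test took 0 members and 5.53% of all genes. At an unadjusted p under 0.05 the members numbered 0 in novice against naive, where 4.6% of all genes did, 1 in expert against naive (Pdia4, 2.86% of all genes) and 2 in expert against novice (Pdia4 and Pdia6, 10.9% of all genes). The groups were without overlap for 0 members in each comparison, and for 0.129% of all genes in novice against naive, 0.0782% between expert and naive and 0.432% between expert and novice.

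In novice against naive 9 of the 10 had a value below 0, where 43% of all genes did, with a median of -0.09 against 0.07 for all genes and -0.20 for the 2183 genes with a mean of 20 FPKM or more. Quantile normalization left 5 of the 10 below 0, and the background covariate also 5. In expert against naive 7 of 10 were above 0 (43.9% of all genes), with medians of 0.11 for the members, -0.05 for all genes and -0.00 over 20 FPKM, and with the background covariate 3 of 10 were above 0. In expert against novice 8 of 10 were above 0 (40.4% of all genes), with medians of 0.43, -0.14 and 0.24. The 9754 genes with a mean of 5 FPKM or more had medians of -0.09 in novice against naive, 0.02 in expert against naive and 0.14 in expert against novice. With the covariate the median of the 10 in expert against novice was 0.05. The astrocyte markers moved with these values, with means of 6.77, 6.22 and 6.96 on the log2(FPKM + 1) scale in naive, novice and expert (exact permutation p = 0.084 for novice against naive and 0.039 for expert against novice, both 0.27 adjusted over 24 tests). Oligodendrocyte markers had means of 3.44 in naive and 3.07 in novice (exact permutation p = 0.022, adjusted 0.27), and endothelial markers 4.87 in naive and 5.45 in expert (p = 0.028, adjusted 0.27). The part of these cell types in the members' values was not tested. The comparisons share libraries, so their values are not independent.

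The wider response was followed in 8 lists of 118 genes, of which 117 were tested. Srp54a, a signal recognition subunit, was below the filter. By limma 0 of the 117 passed in any comparison. Of all genes tested, 43% lay below 0 in novice against naive. Above 0 lay 43.9% in expert against naive and 40.4% in expert against novice. Their median log2 fold change was -0.14 in novice against naive (33 higher, 84 lower), 0.08 in expert against naive (80 higher, 37 lower) and 0.30 in expert against novice (88 higher, 29 lower), against 0.07, -0.05 and -0.14 over all genes and -0.20, -0.00 and 0.24 over genes with a mean of 20 FPKM or more. Without expert 3 the last list median was 0.19. With the background covariate the same medians were -0.08, -0.00 and 0.08. At an unadjusted p under 0.05 there were 3, 4 and 14 of the 117, where 4.6%, 2.86% and 10.9% of all genes were. The 14 were all higher in expert, but the directions within the 10.9% of all genes were not counted.

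**Figure D5:**
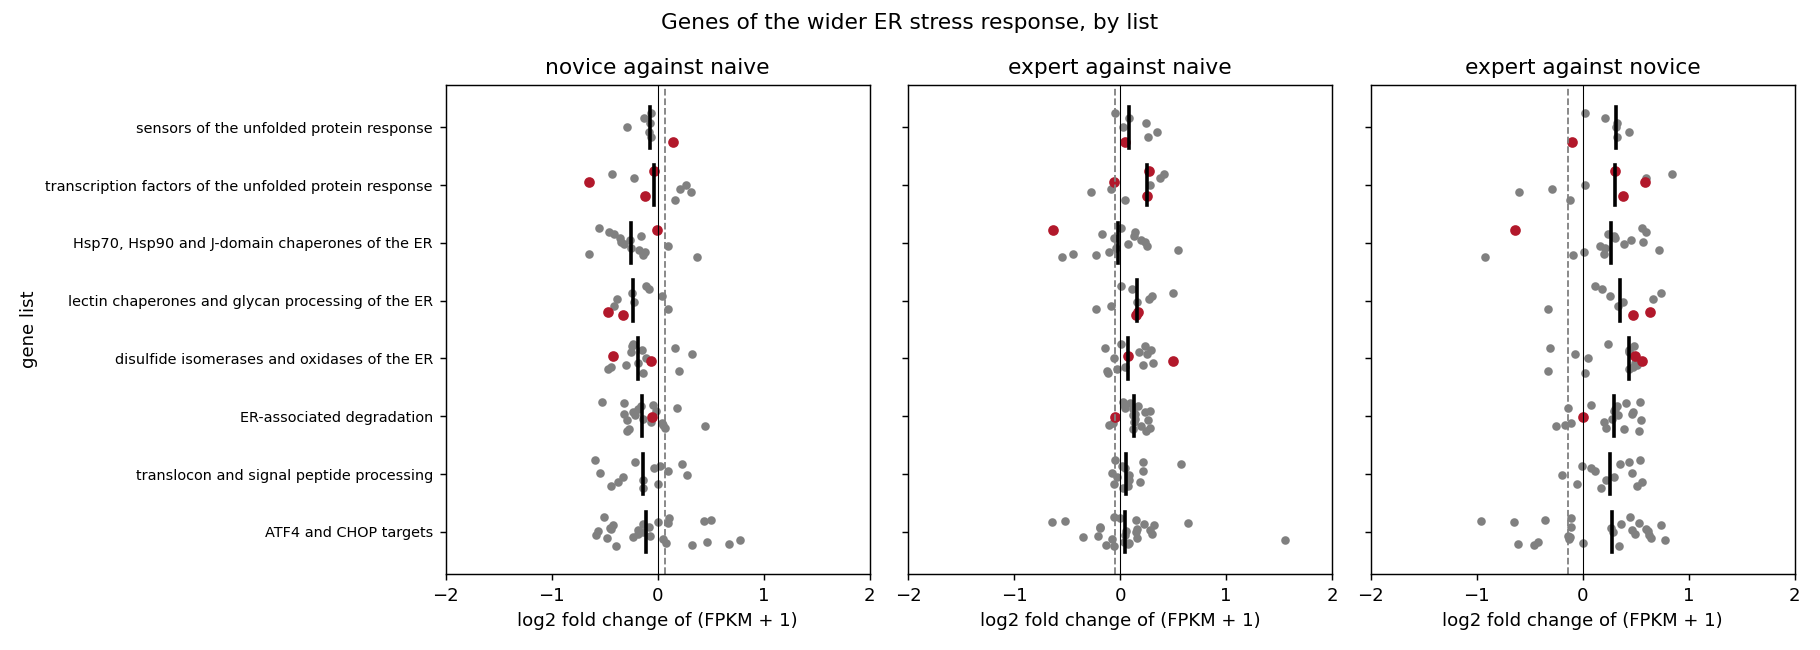
Log2 fold change of FPKM + 1 of each gene (points) in the 8 lists of the wider ER stress response, for the 3 comparisons; the 10 genes are in red, list medians are black bars and the median of all genes is the dashed line. The list medians lie between -0.25 and -0.03 in novice against naive and between 0.26 and 0.44 in expert against novice.

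Among ER chaperones 14 of 16 had a value below 0 in novice against naive (median -0.25), where 43% of all genes did. The median there was -0.09 for genes with a mean of 5 FPKM or more and -0.20 for those with 20 or more. BiP (Hspa5) stood at 56.2 ± 16.5, 42.7 ± 7.18 and 55.1 ± 20.2 FPKM (SD, n = 6) in naive, novice and expert, and Hsp90b1, the ER form of Hsp90, at 90.3 ± 30.9, 68.9 ± 16.8 and 106 ± 39.5 FPKM. Dnajb9, an XBP1 target that restrains IRE1, had 12.4 ± 5.30, 10.1 ± 2.49 and 17.8 ± 5.59 FPKM, at 0.72 (SE 0.28) in expert against novice. Creld2, a chaperone-like target of ATF6, stood at -0.65 (SE 0.30) in novice against naive.

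Genes with small p-values were also found in other lists. Lman2, a cargo lectin, had 7.19 ± 1.04 FPKM in novice and 12.0 ± 2.43 in expert (0.66, SE 0.18). Its expert libraries, at 9.44 FPKM or more, lay above the novice ones, at 8.85 or less, as was so for 55 of the 21745 genes. Prkcsh, the beta subunit of glucosidase II, stood at 0.74 (SE 0.23). Of the degradation list 16 of 20 were above 0 in expert against novice (median 0.30), where 40.4% of all genes were. Erlec1, a lectin of that pathway, was among them at 0.55 (SE 0.22). In the same comparison the median was 0.14 for genes with a mean of 5 FPKM or more and 0.24 for those with 20 or more. Slc3a2, an amino acid transporter chain induced by ATF4, stood at 0.74 (SE 0.25) and Phgdh, the first enzyme of serine synthesis, at 0.62 (SE 0.25). Their limma adjusted p was 0.45 for each of these 5.

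The ATF4 and CHOP targets were divided. Of 26, 11 were above 0 and 15 below in novice against naive, where 43% of all genes were below. In expert against naive 15 were above 0 (43.9% of all genes), and in expert against novice also 15 (40.4%). Ddit4, an inhibitor of mTOR that also answers to glucocorticoids, was listed at 0 in 1 naive library and ran up to 8.21 FPKM in naive and from 6.26 to 18.8 in expert (1.55, SE 0.47, limma adjusted p = 1.0). Asns, a classical ATF4 target, had 4.22 ± 2.25, 5.16 ± 1.44 and 3.48 ± 0.956 FPKM in naive, novice and expert.

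In the 8 lists, 9 genes hold an ERSE in their window: Calr, Canx, Pdia6, Hspa5, Hsp90b1, Creld2, Dnajc3, Syvn1 and Derl3. In novice against naive 8 of the 9 had values below 0 (43% of all genes), with a median of -0.34, and Derl3, a degradation factor, stood at 0.44. In expert against novice 8 were above 0 (40.4% of all genes) with a median of 0.39 (Derl3 at -0.25). In expert against naive 7 were above 0 (43.9% of all genes) with a median of 0.12. Genes with a mean of 20 FPKM or more had medians of -0.20 in novice against naive and 0.24 in expert against novice. Those with 5 FPKM or more had -0.09 and 0.14. None of the 9 passed limma's test, and 3 of them are members already described.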

How the data were processed

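RNA of M1 astrocytes was measured in 18 libraries, 6 per group. Per the labels' protocols, RNA was taken up with a kit for fixed tissue and proteinase K, and stranded total RNA libraries were sequenced on an Illumina instrument. Per the submitters' processing notes, TopHat and Cufflinks were used with mouse build mm9; no version or option is named there. The authors deposited 1 value per gene and library, taken as FPKM because the values are decimals with unequal sums. Their upper quartile was nearly constant (8.20 to 8.89 FPKM), and a scaling behind this is not stated. Of 23951 entries, 27 with names turned into dates were left out.

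The 21745 genes that reached 1 FPKM in 6 or more libraries were fitted as log2(FPKM + 1) with limma 3.58.1 in R 4.3.3 (trend, 1 mean per group), two-sided, with Benjamini-Hochberg adjustment over all genes and a threshold of 0.05. Scaling factors by the trimmed mean of M values (TMM) were computed from the method's formula. Alternatives were a pseudocount of 0.1, other filters, TMM and quantile scaling, covariates (background, or labelled sex and age), subsets by background, a replicate block and leaving out each library. The fit was tested on simulated data with differences added between expert and naive in genes above a set level. It called 34 of 100 genes with a log2 difference of 1 and 85 of 100 with a difference of 2. Among unchanged genes there were 7 false calls in that comparison. A count of 0 genes called therefore does not show that no gene differed. The simulated noise was independent between genes, whereas the real libraries differ in a shared background. Atf6 and Sdf2l1 lie below the set level, so these rates need not hold for the members. All splits were enumerated in the exact permutation tests, of which 24 were made, and the smallest adjusted p was 0.27. Depth is unknown, so no counting intervals are given.

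The members and lists were chosen with earlier results of these data known. Named beyond the 10 members were Hspa5, Hsp90b1, Ern1 and Eif2ak3, any list gene past the threshold and otherwise up to 3 per list by the F test; Tnfrsf10b, Ppp1r15a, Trib3, Chac1, Asns, Srp54a, Coa6, Mars, Mbd6, Derl3 and the other ERSE genes were chosen after their values were seen. Values under 0.001 FPKM are described as listed at 0. Promoter windows came from RefSeq (GRCm38.p6). Of the 10 windows checked, Hspa5 included, 9 ended in a GENCODE transcript of the gene on the same strand, with 0 on the opposite strand. The window without a match was that of Pdia4.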

Additional observations from a re-analysis of the deposited data

Results flagged for a closer look

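In the expert group Pdia6 had 1 library far from the others. Expert 3 stood at 29.8 FPKM, while the next was expert 2 and the lowest 13.8 FPKM. The gap made up 0.671 of the range of the 6 libraries, a share that chance passes in about 1 group in 20. Expert 3 also had the lowest background, at 0.303 FPKM, and the highest level of Calr, Canx, Atf4, Pdia4 and Herpud1. Without expert 3, Pdia6 stood at -0.07 in expert against naive and at 0.35 in expert against novice. Of the 30 sets of 6 libraries examined, 1 was marked in this way.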

How the results depend on the processing

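No member passed the threshold in any of 940 values under the alternatives, 82 of which had the opposite sign, and 12 of the 30 member results kept their direction throughout. The 940 include alternatives that cannot move a member's difference, such as other filters or leaving out a library of the group not compared. By limma 0 genes were called in each comparison and 0 when any 1 library was left out. An unadjusted p under 0.05 was found for 1000 genes in novice against naive, 622 between expert and naive and 2360 between expert and novice. Genes were called in small sets of libraries: 6 in expert against naive under a background of 2 FPKM, where no novice library lay, and, over 4 FPKM, a limit chosen after seeing the data, 3 in novice against naive, 4 between expert and naive and 5 between expert and novice. The cause was not tested. Libraries of the same number were not treated as pairs. Between groups, their deviations from the group means had a median correlation of 0.15, against -0.06 for libraries of different numbers. Of the 18 same-number correlations 10 were over 0.1, and 1 of 18 libraries was closest to its own number. Whether libraries of the same number share a batch was not tested. A fit with the replicate block called 0 genes. Every number occurs in each group, so the block cannot move a group difference, and its unchanged signs show nothing.

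Signs turned as follows, none called, and the cause was not tested. In novice against naive, Sdf2l1 was 0.00507 with a pseudocount of 0.1. Quantile normalization gave Xbp1 0.00373, Atf4 0.0231, Pdia4 0.0927 and Herpud1 0.0594, and the background covariate 0.00886, 0.0467, 0.0492 and 0.0328. Over 2 FPKM of background the same genes were at 0.12, 0.16, 0.0608 and 0.00340. Over 4 FPKM Atf4 was 0.50, Calr 0.20, Canx 0.0406, Pdia4 0.43, Pdia6 0.0302 and Herpud1 0.29. With labelled sex and age as covariates Xbp1 was 0.26 and Pdia4 0.0305, and without both libraries that went against their labelled sex Xbp1 was 0.0117, Herpud1 0.0889 and Sdf2l1 0.0252. In expert against naive, TMM scaling gave Ddit3 0.0316 and Herpud1 0.0365, and sex and age gave Ddit3 0.0243. The background covariate gave Atf6 -0.00270, Calr -0.0640, Canx -0.0947 and Pdia6 -0.0580. Herpud1 was 0.12 under 2 FPKM and 0.15 over 4 FPKM, Atf6 -0.0774 over 2 FPKM and -0.0245 over 4 FPKM, and Pdia6 -0.00325 over 2 FPKM and -0.0749 under 4 FPKM. In expert against novice, Atf6 was 0.0120 with TMM. Herpud1 was -0.00163 with a pseudocount of 0.1, -0.12 with quantile normalization, -0.18 with the background covariate, -0.28 over 2 FPKM, and -0.14 both over 4 FPKM and without the libraries against their labelled sex. Over 2 FPKM Atf4 was -0.00465 and Sdf2l1 0.11.

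With 1 library left out, novice against naive ran from -0.31 to 0.0327 for Atf4, -0.15 to 0.0464 for Herpud1, -0.25 to 0.0501 for Pdia4, -0.13 to 0.12 for Sdf2l1 and -0.11 to 0.11 for Xbp1. Expert against naive ran from -0.00695 to 0.11 for Atf6, -0.0286 to 0.35 for Canx, -0.40 to 0.30 for Ddit3, -0.21 to 0.12 for Herpud1 and -0.0672 to 0.15 for Pdia6. Herpud1 in expert against novice ran from -0.16 to 0.17. Depth is unknown, and levels near the silent genes (Sdf2l1, Atf6 and low Ddit3) limit what these values can show.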
